A study of Mus musculus with 42 samples.

Results

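The 9 genes described here act in the import, storage and release of iron in macrophages. They include the exporter Slc40a1, the transferrin receptor Tfrc and its partner Hfe, and Steap3, which reduces iron in endosomes. The others are the metal transporters Slc11a1 and Slc11a2, the ferritin chains Fth1 and Ftl1, and the iron sensor Ireb2. The 9 genes were chosen by name, with earlier results of these data known, and all were found among the 37310 genes of the count table. All 9 also passed the filter on low counts, which left 11624 genes to test. The libraries came from bone-marrow-derived macrophages (BMDM), cells that mature from mouse marrow in medium conditioned by L929 fibroblasts. RNA was read as ribodepleted total RNA, and the values are counts of reads per gene.

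The 14 groups held 3 libraries each. KO groups came from mice whose floxed Irf5 (interferon regulatory factor 5) alleles are cut by Cre recombinase expressed from the Lyz2 gene in myeloid cells, and WT groups came from wild-type mice. All mice were young adult males on a C57BL/6 background. In each genotype, cells were sampled as Control at 0, 2 and 24 h, after palmitate, a saturated fatty acid, at 2 and 24 h, and after LPS, the bacterial lipopolysaccharide, at 2 and 24 h. Libraries held 2848793 to 7743442 counts in all. Irf5 lay between 267 and 430 CPM (the usual scaling of a count by its library's total, adjusted between libraries by the TMM method) in the 21 libraries labelled KO and between 210 and 389 CPM in the 21 labelled WT, so its level did not set the labelled KO libraries apart in the direction of the label. Reads outside the floxed part would not report the deletion, but whether this accounts for the Irf5 levels was not tested. Counts per gene do not tell whether the deletion took place in these libraries. Lyz2, the gene that carries Cre, was lower in the libraries labelled KO (4682 to 8766 CPM) than in those labelled WT (8025 to 14587 CPM). "KO" below means a library that carries this label. The 6 LPS markers (Tnf, Il6, Il1b, Nos2, Cxcl10 and Acod1) all rose in each of the 4 LPS comparisons, and the 7 macrophage markers were all present. The sources do not say whether the 3 libraries of a group came from separate mice, so that every p-value measures the spread between these samples, and with bulk RNA fewer cells of a type and less RNA per cell cannot be told apart.

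Macrophages recover iron from old red cells and decide whether to keep it or to pass it on. Transferrin-bound iron enters through the transferrin receptor, is reduced in the endosome and crosses its membrane through a divalent metal transporter, while surplus iron is packed into ferritin or leaves through ferroportin, the product of Slc40a1 and the only known exporter of iron from mammalian cells. Iron regulatory proteins tune this traffic by binding a hairpin, the iron-responsive element (IRE): in a 5′ UTR it blocks translation, and in the 3′ UTR of Tfrc it protects the mRNA from decay. During infection macrophages are known to withhold iron from microbes by keeping it inside the cell.

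IRE pattern matches sort the 9 genes into those with a match in the 5′ UTR, in the 3′ UTR or in neither. The search asked for a C, 5 bases, the loop CAGTGN with a last base other than G, and 5 bases that pair with the first 5 (G with T allowed), on the transcript strand of the GENCODE annotation of GRCm38 (the build also called mm10). The pattern was found in 0.11% of 20916 genes with an annotated 5′ UTR and in 0.461% of 21707 genes with an annotated 3′ UTR. Each sequence is given 5′ to 3′ as DNA letters over 30 bases, with the 6 bases of the loop in capitals. The 5′ UTR sites lay at chr19:9982732-9982761 (plus strand, Fth1), chr7:45459778-45459807 (minus strand, Ftl1) and chr1:45925464-45925493 (minus strand, Slc40a1).
Fth1 5′ UTR: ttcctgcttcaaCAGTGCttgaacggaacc
Ftl1 5′ UTR: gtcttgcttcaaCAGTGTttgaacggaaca
Slc40a1 5′ UTR: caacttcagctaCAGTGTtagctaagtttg
The 3′ UTR of Tfrc held 4 sites on the plus strand, at chr16:32631219-32631248, chr16:32631598-32631627, chr16:32631663-32631692 and chr16:32631710-32631739, in this order.
Tfrc 3′ UTR, site 1: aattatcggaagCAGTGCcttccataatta
Tfrc 3′ UTR, site 2: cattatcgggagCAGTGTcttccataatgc
Tfrc 3′ UTR, site 3: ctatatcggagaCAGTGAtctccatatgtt
Tfrc 3′ UTR, site 4: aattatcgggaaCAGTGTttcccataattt
Steap3, Slc11a1, Slc11a2, Hfe and Ireb2 had no match to this pattern in their annotated UTRs, which says only that these letters are not there. An IRE with an unpaired base within the 5 pairs would be missed, so these genes can still carry one. A match is a description of the sequence and not a measured contact.

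Levels between genes are compared here as CPM per kilobase of the longest principal transcript, averaged over the 42 libraries. Ferritin mRNA stood far above the rest, with Fth1, the heavy chain that oxidises iron, at 14036 and Ftl1, the light chain that helps form the iron core, at 4538. Slc11a1, the metal transporter of phagosomes, followed at 243. Tfrc (62.8) and Slc40a1 (41.3) came next, and below them Slc11a2 (19.6), which carries iron out of endosomes, Hfe (14.9), a partner of the transferrin receptor, Ireb2 (9.33), which encodes iron regulatory protein 2, and Steap3 (3.04), the ferrireductase of endosomes. Fth1 made up between 1.69% and 2.93% of all reads in a library. The genes differed as much in how far they moved: the highest group mean was 9.59 times the lowest for Slc40a1 and 7.55 times for Tfrc, but 1.26 times for Ireb2. Steap3 rested on the fewest reads, 45 to 147 per library, and Fth1 on the most, 48122 to 181903. Processed copies of the ferritin genes held 5551 reads (Ftl2-ps), 2591 (Ftl1-ps1) and 53 (Fth-ps2) over all libraries, against 1043375 for Ftl1 and 4992600 for Fth1, so reads shared between them could move the ferritin values by a small share. Slc11a2 overlaps Gm5475 on the other strand, which held 19 reads.

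Over the 25 comparisons of the design the 9 genes gave 225 tests, of which 39 passed an adjusted p of 0.05 (edgeR quasi-likelihood test, Benjamini-Hochberg adjustment over the 11624 genes). Slc40a1 passed in 10 comparisons, Tfrc in 8, Fth1 in 6, Slc11a1 in 5, Slc11a2 in 4, Ftl1 in 3, Steap3 in 2, Hfe in 1 and Ireb2 in 0. These totals depend on the comparisons, since the share of all genes called ran from 0% to 40.9% (LPS at 24 h in KO). That share is given below with each comparison. Because the 9 genes were chosen with earlier results of these data known, their counts beside that share describe them and are no test of the set.

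LPS lowered the exporter and the transferrin receptor and raised the heavy ferritin chain and both divalent metal transporters, and the changes of Slc40a1, Tfrc, Fth1 and Slc11a1 were larger at 24 h than at 2 h. At 24 h, 8 of the 9 genes were called in WT (3 higher, 5 lower) beside 39.5% of all genes tested, and 7 of 9 in KO (3 higher, 4 lower) beside 40.9%. At 2 h, 2 of 9 were called in WT (Slc11a2 higher, Slc40a1 lower) beside 23.1%, and 3 of 9 in KO (Slc11a2 higher, Slc40a1 and Ftl1 lower) beside 23.9%. The median log2 fold change of the 9 genes was -0.10 in WT and 0.02 in KO at 2 h, and -0.32 in WT and -0.24 in KO at 24 h, where the median over all genes tested was -0.01 in each of the 4 comparisons.

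**Figure D1:**
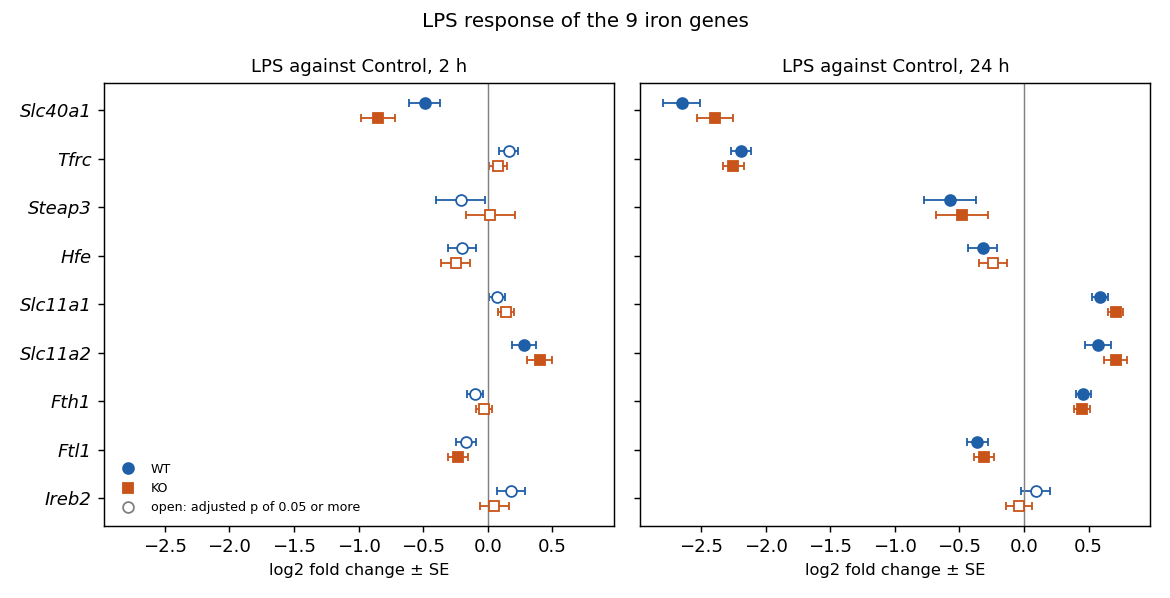
Log2 fold change of LPS against Control with its SE (horizontal axis) for the 9 iron genes at 2 h (left) and 24 h (right), in WT (circles) and KO (squares); filled symbols passed an adjusted p of 0.05. Slc40a1 is left of 0 at both times and Tfrc at 24 h only, while Slc11a1, Slc11a2 and Fth1 lie right of 0 at 24 h in both genotypes.

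Slc40a1 fell in both genotypes at both times. At 2 h its level was 117, 119 and 105 CPM in the WT LPS libraries and 159, 154 and 165 CPM in the WT Control libraries. In KO it was 84.3, 63.4 and 63.4 CPM with LPS and 95.9, 146 and 131 CPM in Control. In each genotype every LPS library was below every Control library at this time. The log2 fold change was -0.49 ± 0.12 (SE, n = 3 per group; adjusted p = 0.002, edgeR) in WT and -0.85 ± 0.13 (adjusted p = 1.18e-06, edgeR) in KO.

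By 24 h the exporter mRNA stood at 29.6, 21 and 34.8 CPM in the WT LPS libraries against 176, 178 and 184 CPM in WT Control. The KO libraries held 30.7, 33.1 and 35.3 CPM with LPS and 182, 177 and 161 CPM in Control. The LPS libraries were the lowest of all 42, and in reads the lowest held 127. Slc40a1 fell by 2.65 ± 0.14 on the log2 scale in WT (0.159 times Control; adjusted p = 6.49e-22, edgeR) and by 2.39 ± 0.14 in KO (0.191 times; adjusted p = 1.71e-20, edgeR). The LPS effect at 24 h was larger than that at 2 h, by a log2 difference of -2.16 ± 0.19 in WT (adjusted p = 1.46e-13; 32.6% of all genes were called in this contrast) and -1.53 ± 0.19 in KO (adjusted p = 6.87e-09; 33.4% of all genes). In each of these contrasts 4 of the 9 genes were called, Slc40a1 and Tfrc downward and Slc11a1 and Fth1 upward (edgeR).

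Tfrc, which encodes the receptor for transferrin-bound iron, did not pass the test at 2 h and had fallen at 24 h. At 2 h the WT libraries held 394, 385 and 372 CPM with LPS and 361, 313 and 354 CPM in Control, and the KO libraries 331, 361 and 373 CPM against 325, 325 and 362 CPM. The log2 fold change was 0.16 ± 0.07 in WT (adjusted p = 0.108, edgeR) and 0.08 ± 0.07 in KO (adjusted p = 0.513, edgeR). At 24 h the level was 69.0, 75.8 and 64.5 CPM in WT with LPS against 316, 301 and 334 CPM in Control, and in KO 62.0, 62.2 and 59.3 CPM against 294, 281 and 299 CPM. Every 24 h LPS library lay below every other library of the series. Tfrc fell by 2.19 ± 0.08 on the log2 scale in WT (0.22 times Control; adjusted p = 3.99e-28, edgeR) and by 2.25 ± 0.08 in KO (0.21 times; adjusted p = 1.84e-28, edgeR). The effect at 24 h minus that at 2 h was -2.35 ± 0.11 in WT (adjusted p = 2.49e-23) and -2.33 ± 0.11 in KO (adjusted p = 5.52e-23). All 10 cell cycle genes tested also fell with LPS at 24 h in both genotypes, where 39.5% (WT) and 40.9% (KO) of all genes were called. Their summed level was 241 to 281 CPM in the WT LPS libraries against 618 to 657 CPM in WT Control, and 265 to 301 against 654 to 723 CPM in KO. At 2 h this sum was instead higher with LPS, at 933 to 1150 against 494 to 704 CPM in WT and 1130 to 1260 against 636 to 715 CPM in KO. None of the 10 was at 0, and their part in the fall of Tfrc was not tested.

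**Figure D2:**
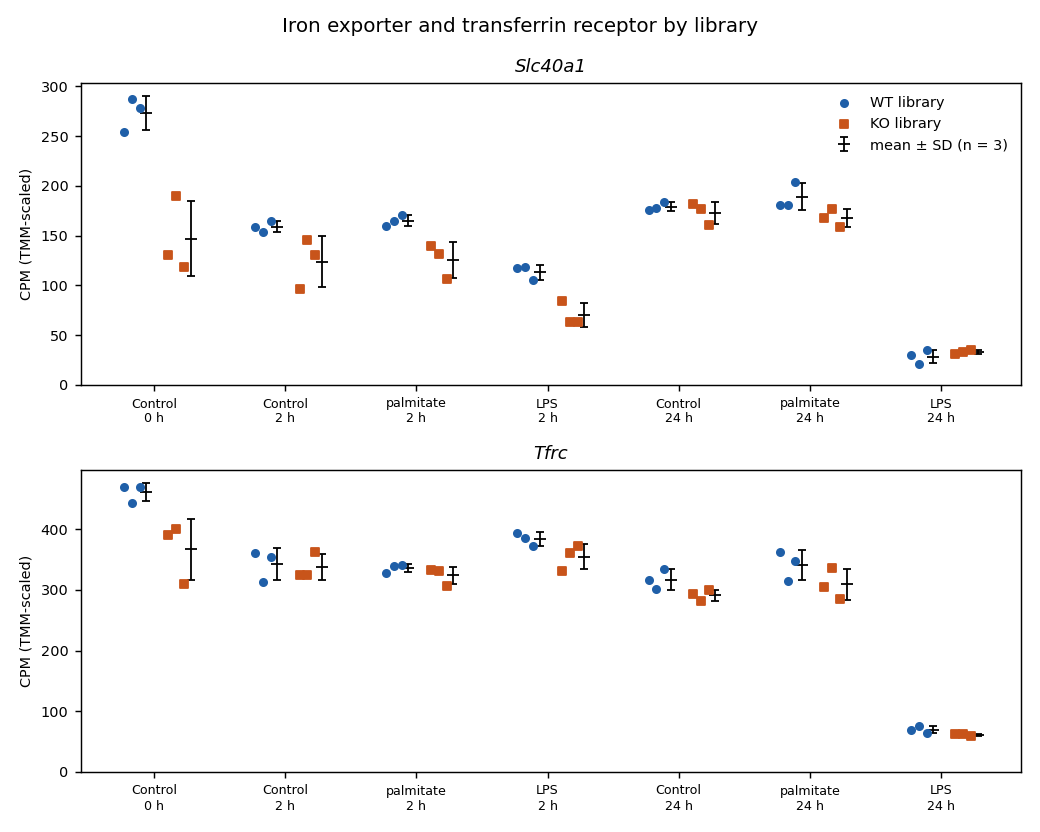
Slc40a1 (top) and Tfrc (bottom) in TMM-scaled CPM (vertical axes from 0) in each library of the 7 conditions, with the mean and SD of 3 libraries beside the points, for WT (circles) and KO (squares). Both genes are at their lowest with LPS at 24 h (21 to 35.3 CPM for Slc40a1 and 59.3 to 75.8 CPM for Tfrc), and both are at their highest in WT Control 0 h.

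Tfrc stood higher relative to Slc40a1 with LPS at 2 h. It held 2.15 ± 0.118 reads for each Slc40a1 read (mean ± SD, n = 3) in WT Control 2 h and 3.39 ± 0.157 with LPS at 2 h, and in KO 2.79 ± 0.58 and 5.17 ± 1.08. The 3 WT LPS libraries (3.38, 3.24 and 3.55) all lay above the 3 WT Control libraries (2.28, 2.04 and 2.15), and so did the KO LPS libraries (3.93, 5.70 and 5.88) over KO Control (3.39, 2.23 and 2.75). At 24 h the ratio was 1.77 ± 0.0693 in WT Control and 2.60 ± 0.906 with LPS, where the 3 libraries gave 2.33, 3.61 and 1.85, and 1.69 ± 0.151 and 1.86 ± 0.17 in KO, where the LPS libraries (2.02, 1.88 and 1.68) overlapped Control (1.62, 1.58 and 1.86). These ratios are free of the scaling between libraries and were given no test.

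The 2 ferritin chains moved in opposite directions at 24 h. Fth1 was 25259, 30103 and 25626 CPM in WT with LPS and 19445, 19698 and 19631 CPM in WT Control, and 24919, 24673 and 24884 CPM against 18296, 18650 and 17450 CPM in KO. Every LPS library lay above every Control library. Fth1 rose by 0.46 ± 0.06 on the log2 scale in WT (1.38 times; adjusted p = 4.65e-09, edgeR) and by 0.45 ± 0.06 in KO (1.37 times; adjusted p = 7.49e-09, edgeR). At 2 h the log2 values were -0.10 ± 0.06 in WT and -0.03 ± 0.06 in KO, neither called, although without WT LPS library 2 the WT value was -0.19 (adjusted p = 0.025). The change from 2 to 24 h was 0.56 ± 0.08 in WT (adjusted p = 2.72e-07) and 0.48 ± 0.08 in KO (adjusted p = 6e-06).

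Ftl1 at 24 h was 3368, 4110 and 3554 CPM in WT with LPS against 4619, 4953 and 4627 CPM in Control, and 3796, 3553 and 3674 CPM against 4662, 4640 and 4338 CPM in KO. The light chain fell by 0.36 ± 0.08 on the log2 scale in WT (0.777 times; adjusted p = 9.56e-05, edgeR) and by 0.31 ± 0.08 in KO (0.808 times; adjusted p = 0.00084, edgeR), with no overlap of the libraries in either genotype. At 2 h Ftl1 was called in KO (-0.23 ± 0.08, adjusted p = 0.0185) and not in WT (-0.17 ± 0.08, adjusted p = 0.101), where it passed without LPS library 2 (-0.24, adjusted p = 0.034), with all genes that had a count tested (adjusted p = 0.0149) and with the compared libraries fitted alone (adjusted p = 0.0081). Its KO call at 2 h rested on single libraries: LPS library 1 was at 2905 CPM beside 3990 and 4063 CPM in the others, and without it the value was -0.11 (adjusted p = 0.313), while without Control library 3 it was -0.18 (adjusted p = 0.127). With the compared libraries fitted alone it was -0.24 (adjusted p = 0.117).

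Within a library, the count of Fth1 reads for each Ftl1 read separates the 24 h LPS samples from all others without any scaling. It was 7.50, 7.32 and 7.21 in the WT and 6.57, 6.94 and 6.77 in the KO libraries with LPS at 24 h. In the other 36 libraries it was between 3.88 and 5.17, except for 6.29 in KO LPS 2 h library 1, the library with the low Ftl1. The means were 4.14 ± 0.145 in WT Control 24 h and 3.99 ± 0.0557 in KO Control 24 h. Both ferritin mRNAs had an IRE match in the 5′ UTR with the same upper stem (the lines above). An IRE there acts on translation, which read counts do not measure.

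**Figure D3:**
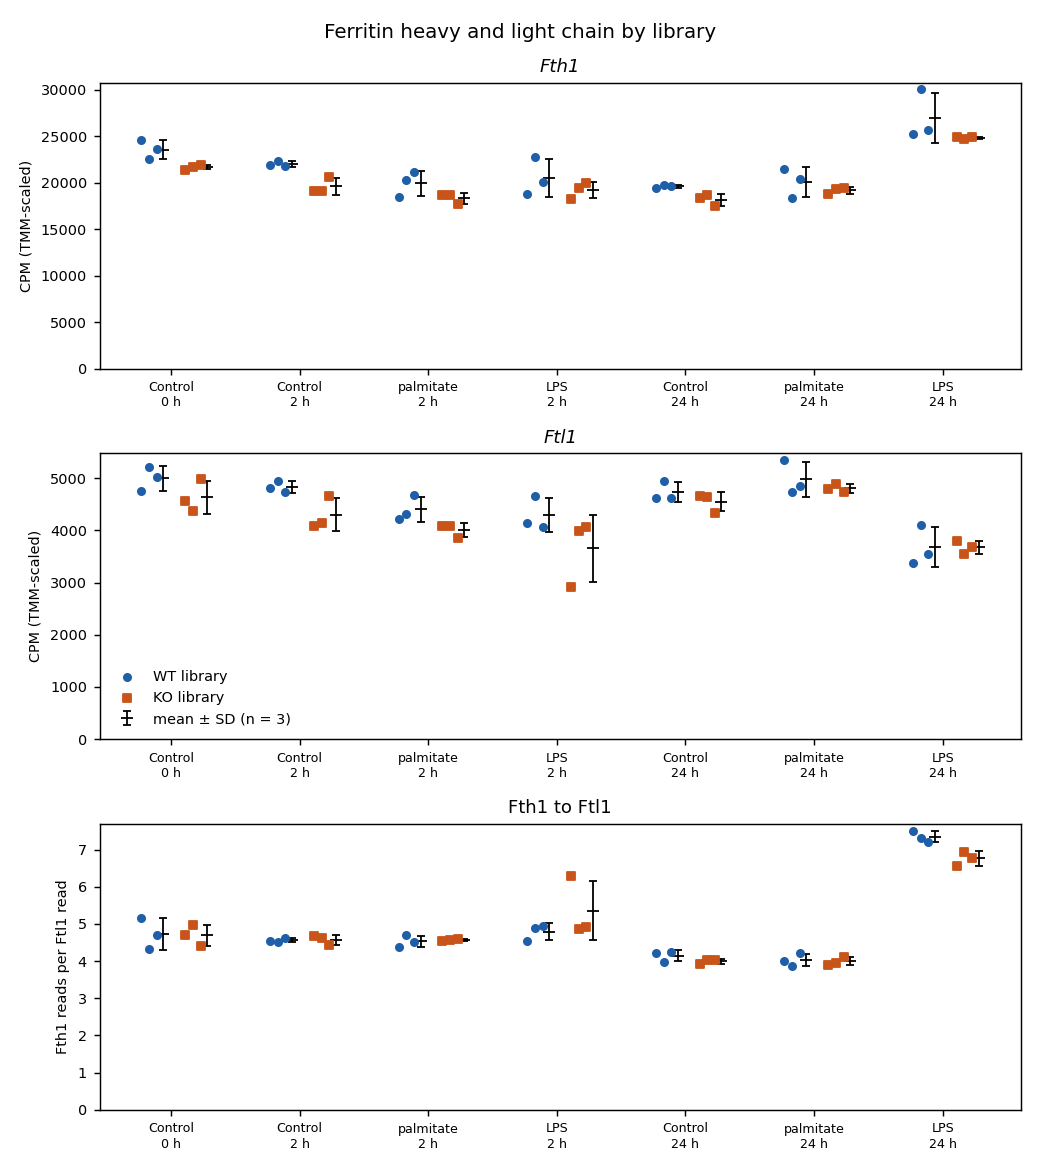
Fth1 (top) and Ftl1 (middle) in TMM-scaled CPM and Fth1 reads per Ftl1 read (bottom) in each library, with mean and SD of 3 libraries, for WT (circles) and KO (squares); all vertical axes start at 0. With LPS at 24 h the ratio is 6.57 to 7.50, and KO LPS 2 h library 1 stands apart from its group at 6.29.

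The metal transporters rose. Slc11a1 (NRAMP1), which moves iron and manganese out of the phagosome and is known for limiting the growth of engulfed microbes, was 772, 807 and 816 CPM in WT with LPS at 24 h against 517, 536 and 533 CPM in Control, and 804, 761 and 804 CPM against 479, 482 and 485 CPM in KO. The 6 LPS libraries were the highest of the series. At 2 h the log2 values were 0.07 ± 0.06 in WT and 0.14 ± 0.06 in KO (adjusted p = 0.391 and 0.0712, edgeR), and the KO value passed without LPS library 2 (0.20, adjusted p = 0.0132). At 24 h the log2 rise was 0.59 ± 0.06 in WT (1.51 times; adjusted p = 7.23e-13, edgeR) and 0.71 ± 0.06 in KO (1.64 times; adjusted p = 1.71e-15, edgeR), and it exceeded that at 2 h by 0.52 ± 0.08 in WT (adjusted p = 5.12e-07) and 0.57 ± 0.08 in KO (adjusted p = 6.02e-08).

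Slc11a2 (DMT1), which works beside the transferrin receptor in endosomes, was called at both times. At 2 h it was 74.4, 73.2 and 83.4 CPM in WT with LPS against 61.6, 67.0 and 62.2 CPM in Control, and 75.9, 82.9 and 71.6 CPM against 57.7, 63.4 and 53.4 CPM in KO. The log2 fold change was 0.28 ± 0.09 in WT (adjusted p = 0.0241, edgeR) and 0.40 ± 0.10 in KO (adjusted p = 0.000942, edgeR). The WT call was lost without LPS library 3 (0.21, adjusted p = 0.182), Control library 1 (0.25, adjusted p = 0.0886) or Control library 3 (0.26, adjusted p = 0.0851), and when all genes with a count were tested (0.27, adjusted p = 0.0754). At 24 h the rise was 0.57 ± 0.10 in WT (1.49 times; adjusted p = 1.85e-06, edgeR), from 60.6, 46.1 and 42.4 to 75.6, 69.0 and 73.2 CPM. In KO it was 0.71 ± 0.09 (1.63 times; adjusted p = 1.67e-08, edgeR), from 50.9, 47.0 and 45.0 to 83.9, 69.8 and 77.6 CPM. The change between 2 and 24 h did not pass the test (0.29 ± 0.13 in WT, adjusted p = 0.087; 0.30 ± 0.13 in KO, adjusted p = 0.0798). It passed in WT without Control 24 h library 1 (0.44, adjusted p = 0.00647) and in KO without any 1 of Control 24 h library 1, LPS 2 h library 2, Control 2 h library 3 and LPS 24 h library 2 (0.36 to 0.38, adjusted p between 0.0326 and 0.0487).

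Steap3, which reduces the iron that Slc11a2 then carries, and Hfe, which binds the transferrin receptor and is mutated in hereditary haemochromatosis, were lower with LPS at 24 h by smaller and less secure amounts. Steap3 was 12.2, 7.78 and 11 CPM in WT against 16.6, 12.9 and 16.6 CPM in Control (-0.57 ± 0.20, adjusted p = 0.0185, edgeR). In KO it was 6.71, 10.8 and 11.9 CPM against 15.1, 14.2 and 12.0 CPM (-0.48 ± 0.20, adjusted p = 0.0488, edgeR). The WT call was lost without Control library 1 (adjusted p = 0.0573), Control library 3 (0.0961) or LPS library 2 (0.144), and the KO call without Control library 1 (0.14), Control library 2 (0.123) or LPS library 1 (log2 -0.26, adjusted p = 0.358), with all genes tested (0.0746) and with the compared libraries fitted alone (0.0697). Hfe was 42.8, 48.3 and 47.3 CPM in WT with LPS against 62.0, 54.5 and 57.3 CPM in Control (-0.32 ± 0.11, adjusted p = 0.0131, edgeR), a call lost without Control library 1 (adjusted p = 0.0641) or LPS library 1 (0.0761). In KO the Hfe libraries overlapped, since LPS library 2 was at 57.5 CPM and the others at 40.9 and 40.4 CPM (-0.24 ± 0.11, adjusted p = 0.0729). Without that library the KO value was -0.41 (adjusted p = 0.00196), and without Control library 2 it was -0.30 (adjusted p = 0.0389).

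Ireb2 mRNA was called in 0 of the 25 comparisons by edgeR, and its smallest adjusted p was 0.261. Its levels ran from 44.6 to 69.0 CPM over the 42 libraries. With LPS at 24 h they were 54.8, 56.9 and 49.0 CPM in WT against 59.5, 44.6 and 48.5 CPM in Control, and 47.3, 52.3 and 57.4 CPM against 46.2, 54.9 and 58.5 CPM in KO. Iron regulatory protein 2 is known to be controlled by the breakdown of the protein, which RNA does not measure.

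**Figure D4:**
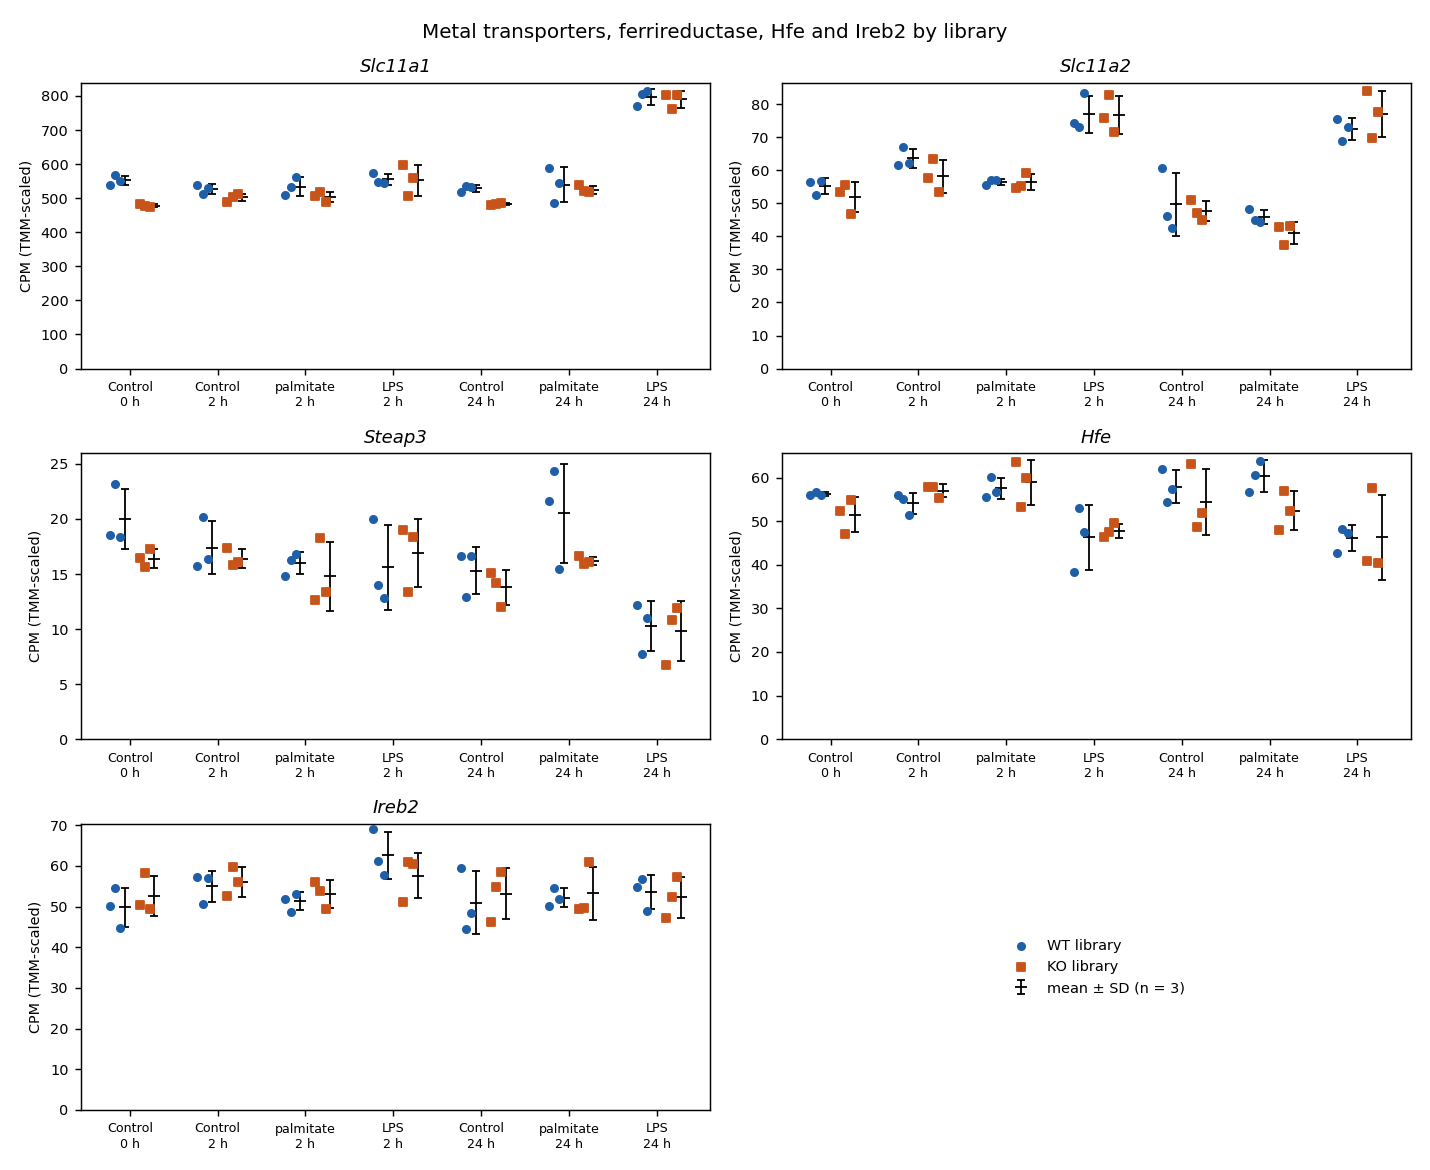
Slc11a1, Slc11a2, Steap3, Hfe and Ireb2 in TMM-scaled CPM (vertical axes from 0) in each library of the 7 conditions, with the mean and SD of 3 libraries, for WT (circles) and KO (squares). Slc11a1 is highest with LPS at 24 h (761 to 816 CPM), Slc11a2 is high with LPS at both times (69 to 83.9 CPM), and Ireb2 stays between 44.6 and 69 CPM in all libraries.

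Palmitate, given to model lipid overload, moved none of the 9 genes past the threshold. By edgeR 0 of 9 were called in WT at 2 h (0.275% of all genes), in KO at 2 h (0.112%), in WT at 24 h (0.852%) and in KO at 24 h (0.877%), and DESeq2 called 0 of 9 in each as well. At an unadjusted p under 0.05 (edgeR) there were 1, 0, 1 and 2 of the 9 genes, beside 866, 536, 1049 and 927 of all 11624 genes. The lowest adjusted p was 0.441, for Steap3 at 24 h in WT, where the libraries held 21.6, 24.4 and 15.5 CPM against 16.6, 12.9 and 16.6 CPM in Control (0.42 ± 0.18). For Slc40a1 the 4 log2 values lay between -0.05 and 0.07, with an SE of 0.12 each. For Tfrc they lay between -0.06 and 0.11, with an SE of 0.07 each. The cells did respond: 3 of the 4 palmitate markers (Plin2, Angptl4, Cpt1a and Pdk4) had enough reads to test, and all 3 rose in each of the 4 comparisons. Their summed level at 24 h was 1100 to 1150 CPM in WT and 1110 to 1130 CPM in KO with palmitate, against 339 to 346 and 325 to 348 CPM in Control.

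Slc40a1 and Tfrc were also lower after 2 and 24 h in culture without treatment in WT, as was Tfrc at 24 h in KO. From 0 to 2 h in WT, 2 of 9 genes were called, both lower, beside 14.3% of all genes: Slc40a1 went from 254, 287 and 278 CPM to 159, 154 and 165 CPM (-0.78 ± 0.12, adjusted p = 8.43e-07, edgeR) and Tfrc from 470, 444 and 470 CPM to 361, 313 and 354 CPM (-0.43 ± 0.07, adjusted p = 9.84e-06, edgeR). From 0 to 24 h in WT, Slc40a1 (-0.60 ± 0.12, adjusted p = 0.000159), Tfrc (-0.54 ± 0.07, adjusted p = 2.53e-07) and Fth1 (-0.27 ± 0.06, adjusted p = 0.00116) were lower beside 12.1% of all genes (edgeR). Slc11a2 joined them without Control 24 h library 1 (-0.31, adjusted p = 0.0333). In KO from 0 to 2 h, edgeR and DESeq2 called 0 of 9 beside 12.1% of all genes. At an unadjusted p under 0.05 (edgeR) there was 1 of 9, beside 2724 of all 11624 genes. The KO value of Tfrc there was -0.12 ± 0.07, and without Control 0 h library 3 it was -0.22 (adjusted p = 0.0406). From 0 to 24 h in KO, Tfrc (-0.33 ± 0.07, adjusted p = 0.00131) and Fth1 (-0.26 ± 0.06, adjusted p = 0.00207) were lower beside 8.17% of all genes, and Slc40a1 was at 0.23 ± 0.12 (adjusted p = 0.266, edgeR). Without Control 0 h library 2, which was the highest of its group at 190 CPM, the Slc40a1 value was 0.46 (adjusted p = 0.00676). The Control 24 h group is the base of the LPS values above, and the levels in it are given with them.

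Between genotypes, the exporter was lower in KO in untreated cells at 0 h and with LPS at 2 h. At Control 0 h, Slc40a1 was 131, 190 and 119 CPM in KO against 254, 287 and 278 CPM in WT, with no overlap (-0.89 ± 0.12, 0.538 times; adjusted p = 3.63e-07, edgeR). With LPS at 2 h it was 84.3, 63.4 and 63.4 CPM against 117, 119 and 105 CPM (-0.71 ± 0.14, 0.61 times; adjusted p = 0.00347, edgeR). The log2 values were -0.35 ± 0.12 in Control 2 h (adjusted p = 0.216) and -0.40 ± 0.12 in palmitate 2 h (adjusted p = 0.202). In Control 24 h, palmitate 24 h and LPS 24 h they were -0.06 ± 0.12, -0.17 ± 0.12 and 0.21 ± 0.16 (adjusted p = 1, 0.773 and 0.742). With the libraries of Control 2 h fitted alone the Slc40a1 value of -0.35 passed (adjusted p = 0.0345), and with those of palmitate 2 h fitted alone -0.39 did (adjusted p = 0.00564). Both also passed when all genes with a count were tested (adjusted p = 0.00421 and 0.000316).

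At Control 0 h, 3 of 9 genes were called, all lower in KO, beside 12.5% of all genes. Beside Slc40a1 these were Tfrc, at 391, 400 and 309 CPM in KO against 470, 444 and 470 CPM in WT (-0.33 ± 0.07, adjusted p = 0.00118, edgeR), and Slc11a1, at 482, 476 and 475 CPM against 539, 568 and 550 CPM (-0.21 ± 0.06, adjusted p = 0.00901, edgeR). Without KO library 3 both calls were lost, with Tfrc at -0.21 (adjusted p = 0.0608) and Slc11a1 at -0.20 (adjusted p = 0.0518), and Slc40a1 alone of the 9 stayed called. Over all genes that fit called 731, against 1448 with all libraries. With LPS at 2 h 1 of 9 was called beside 0.465%, namely Slc40a1. In the other 5 conditions edgeR and DESeq2 called 0 of 9, beside 0.49% (Control 2 h), 0.146% (palmitate 2 h), 0.12% (Control 24 h), 0.0688% (palmitate 24 h) and 0.146% (LPS 24 h) of all genes. At an unadjusted p under 0.05 (edgeR), in the same order, there were 3, 2, 1, 0 and 2 of 9. Beside them stood 1172, 1032, 587, 891 and 1056 of all 11624 genes.

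**Figure D5:**
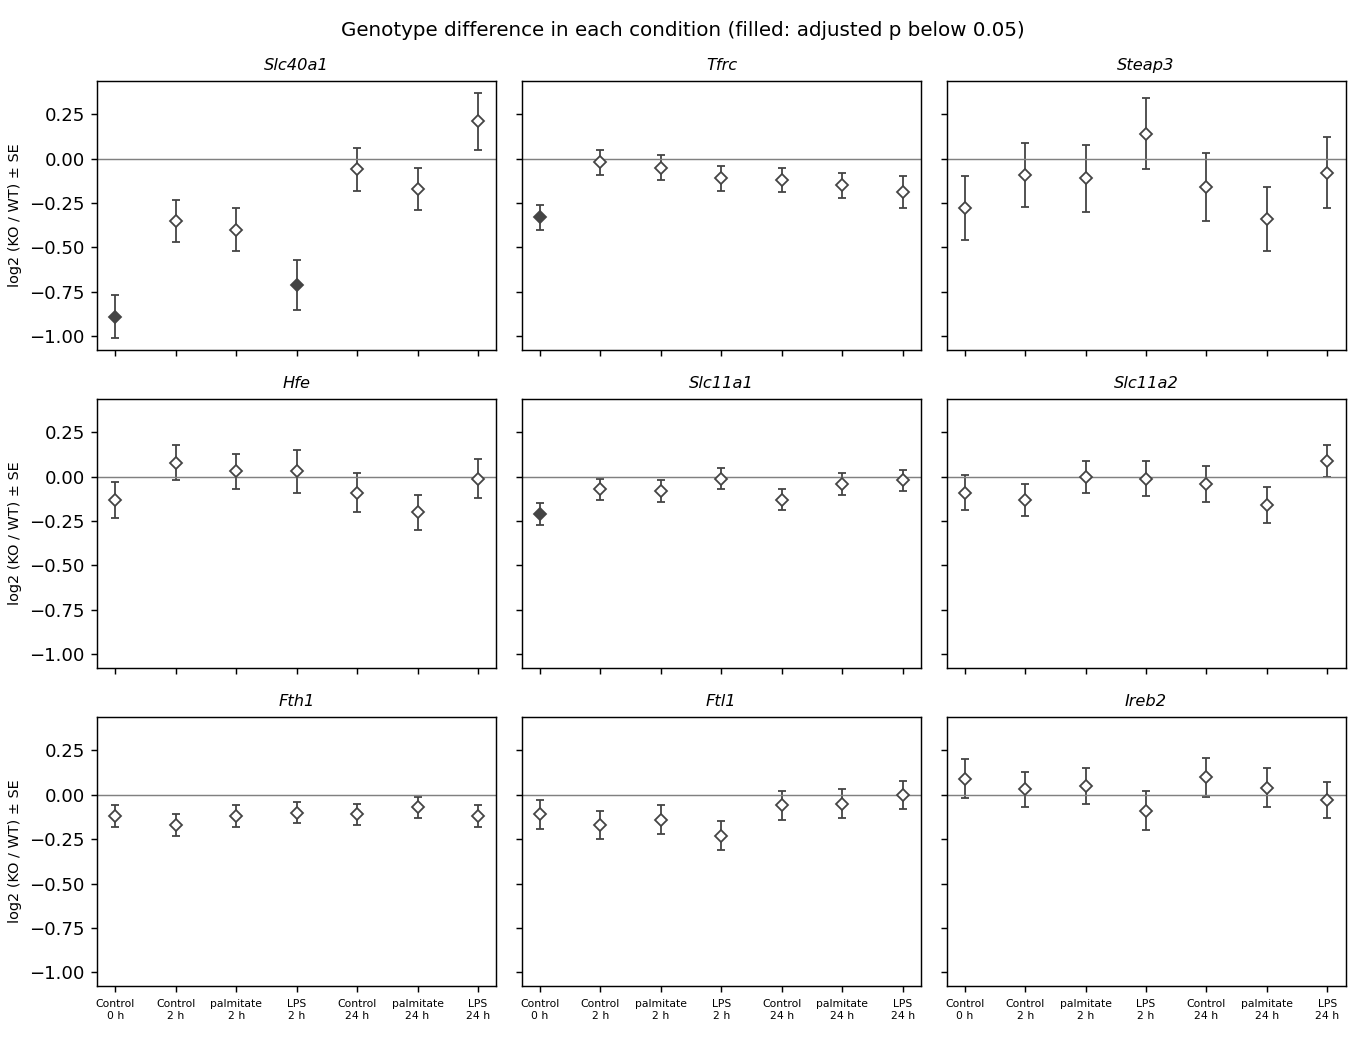
Log2 of KO over WT with its SE (vertical axes, shared) for each of the 9 genes in each of the 7 conditions; filled symbols passed an adjusted p of 0.05. Slc40a1 runs from -0.89 in Control 0 h to 0.21 in LPS 24 h, and the values of Fth1 all lie between -0.17 and -0.07.

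Markers of other cells also differed between the genotypes. The 5 fibroblast genes (Dcn, Col1a1, Col1a2, Col3a1 and Pdgfra) summed to 42.1 to 69.2 CPM in the KO Control 0 h libraries and 0.529 to 0.904 CPM in WT, with all 3 of those tested called higher. Dcn was at 0 in the WT libraries. The 10 granulocyte precursor genes summed to 81.9 to 87.9 CPM in KO and 50.8 to 62.1 CPM in WT, with 1 of 6 tested called higher and Prtn3 at 0 in WT. The 7 macrophage genes summed to 10200 to 14100 CPM in KO and 15300 to 15600 CPM in WT, with 4 called lower and 1 higher, and none was at 0. With LPS at 2 h the fibroblast sum was 0.758 to 152 CPM in KO and 0.371 to 0.715 CPM in WT, and none of the 3 tested was called, while the granulocyte precursor sum was 137 to 243 CPM in KO and 50.1 to 76.8 CPM in WT, with 3 of 6 called higher. The macrophage sum there was 10300 to 11100 CPM in KO and 13600 to 14800 CPM in WT. Both macrophage sums include Lyz2, the gene that carries Cre (4682 to 8766 CPM in KO and 8025 to 14587 CPM in WT over all conditions). The part of these marker genes in the Slc40a1 difference was not tested. Red cell markers, another carrier of iron, summed to at most 1.67 CPM in any library, with Hbb-bs at 0 in all 42.

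Contrasts added after these values were seen asked whether the Control 0 h difference stood out. The KO against WT difference of Slc40a1 at Control 0 h minus that at Control 24 h was -0.84 ± 0.17 (adjusted p = 0.00281, edgeR), 1 of 9 genes called beside 1.83% of all genes, and it stayed called without any 1 of the 12 libraries. Minus that at Control 2 h it was -0.54 ± 0.17 (adjusted p = 0.048, edgeR), again 1 of 9 beside 4.77%, but with DESeq2 the adjusted p was 0.0963. The call stayed only without WT Control 0 h library 1, KO Control 0 h library 2 or KO Control 2 h library 1, and was lost without any 1 of the other 9 libraries (-0.41 to -0.56, adjusted p between 0.056 and 0.199). For Tfrc the 2 contrasts gave -0.21 ± 0.10 (adjusted p = 0.348) and -0.31 ± 0.10 (adjusted p = 0.0657, edgeR), the latter passing with DESeq2 (0.042), with all genes tested (0.0401) and without KO Control 0 h library 2 (0.0233). The WT Control 0 h libraries enter all of these values and the WT time values above.

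Averaged over the 7 conditions, also an added contrast, 5 of 9 genes were lower in KO, beside 11.4% of all genes called. These were Slc40a1 (-0.34 ± 0.05, adjusted p = 2.35e-06), Tfrc (-0.14 ± 0.03, adjusted p = 0.000683), Fth1 (-0.11 ± 0.02, adjusted p = 0.00035), Ftl1 (-0.11 ± 0.03, adjusted p = 0.00958) and Slc11a1 (-0.08 ± 0.02, adjusted p = 0.00829). Without Control 0 h, 4 of 9 were called beside 5.02% of all genes, with Slc40a1 at -0.25 ± 0.05 (adjusted p = 0.00239), Fth1 at -0.11 ± 0.02 (adjusted p = 0.00183), and Tfrc and Ftl1 at -0.11 ± 0.03 each (adjusted p = 0.0309 for each). Slc11a1 was then at -0.06 ± 0.02 (adjusted p = 0.139, edgeR). The Slc40a1 and Fth1 calls of this 6-condition mean stayed without any 1 of 36 libraries, while that of Tfrc stayed in 32 of 36 and that of Ftl1 in 27 of 36. Both were lost without WT palmitate 24 h library 1, WT LPS 24 h library 2 or KO palmitate 2 h library 3, Tfrc also without KO palmitate 24 h library 3, and the largest adjusted p was 0.0564 for Tfrc and 0.0611 for Ftl1. Slc11a1 passed without WT palmitate 24 h library 2 (-0.07, adjusted p = 0.0375). The ferritin differences are small in size, at 0.924 times for Fth1 and 0.929 times for Ftl1. Fth1 was below 0 in each of the 7 conditions, and no single condition passed the test for it with all 42 libraries fitted. With the libraries of Control 2 h fitted alone, Fth1 (-0.16, adjusted p = 0.012) and Ftl1 (-0.16, adjusted p = 0.0469) passed there. Cell markers moved with these averages as well. The macrophage sum, which Lyz2 enters, was lower in KO with no overlap in each of the 7 conditions (10600 to 11200 against 15900 to 16600 CPM in Control 24 h). Lyz2, the gene that carries Cre, was itself at 4682 to 8766 CPM in KO and 8025 to 14587 CPM in WT over all conditions. The sum can therefore not be read apart from that gene. The granulocyte precursor sum was higher with no overlap in 6 of 7. The exception was LPS 24 h (331 to 399 CPM in KO and 338 to 451 CPM in WT). The fibroblast sum was higher in KO with no overlap in Control 0 h, Control 2 h (72.2 to 118 against 1.16 to 58.7 CPM) and LPS 2 h. It overlapped in both palmitate conditions (0.776 to 305 against 0 to 39.4 CPM at 2 h), Control 24 h and LPS 24 h. Over the 7 conditions 6 of 6 granulocyte precursor genes tested were called higher. Of the 7 macrophage genes 1 was called higher and 3 lower. The part of these cell markers in the averages was not tested.

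The genotype did not change the response to a treatment past the threshold for any of the 9 genes. By edgeR 0 of 9 were called in the interaction with LPS at 2 h (0% of all genes), with palmitate at 2 h (0%), with LPS at 24 h (0.0086%) and with palmitate at 24 h (0%), and 0 of 9 by DESeq2. At an unadjusted p under 0.05 (edgeR) there were 0 of 9 in each, beside 810, 486, 628 and 411 of all 11624 genes. The largest interaction value with LPS at 2 h was that of Slc40a1, whose fall was deeper in KO by -0.36 ± 0.18 (adjusted p = 0.712). At 24 h it was 0.27 ± 0.20 (adjusted p = 0.971), in the other direction.

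The wider set of 62 iron genes held 45 that were tested. The remaining 17 had few reads, among them Hamp, which encodes hepcidin, the hormone that removes ferroportin from the cell surface (4 reads over all libraries), and Tfr2 (17 reads). With LPS at 24 h, 27 of 45 were called in WT (12 higher, 15 lower) and 30 of 45 in KO (13 higher, 17 lower), beside 39.5% and 40.9% of all genes. Their median log2 fold change was 0.00 in WT and -0.08 in KO. At 2 h 13 of 45 in WT (9 higher, 4 lower) and 15 of 45 in KO (11 higher, 4 lower) were called, beside 23.1% and 23.9% of all genes. Palmitate raised 1 of 45 at 24 h in each genotype, beside 0.852% (WT) and 0.877% (KO) of all genes called. This was a different gene in each, Hp in WT (1.01 ± 0.25, adjusted p = 0.0327, edgeR) and Slc25a37 in KO (0.59 ± 0.15, adjusted p = 0.0442, edgeR). At 2 h 0 of 45 were called, beside 0.275% (WT) and 0.112% (KO) of all genes. The genes named below come from the at most 4 per direction with the smallest adjusted p in a comparison. Not all of those are named.

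Among secreted iron-binding proteins and ferroxidases, Lcn2 (lipocalin 2, which takes iron from bacteria by binding their siderophores) was at 347 ± 64.0 CPM in WT with LPS at 24 h and 5.61 ± 1.96 CPM in Control (mean ± SD, n = 3; log2 5.88 ± 0.23, adjusted p = 5.7e-27, edgeR), and at 310 ± 31.1 against 16.4 ± 5.71 CPM in KO (4.29 ± 0.20, adjusted p = 4.93e-24, edgeR). Cp (ceruloplasmin, the ferroxidase that works with ferroportin) rose from 13.4 ± 2.52 to 115 ± 14.4 CPM in WT (3.12 ± 0.18, adjusted p = 1.62e-20, edgeR) and from 12.2 ± 2.21 to 103 ± 11.2 CPM in KO (3.09 ± 0.18, adjusted p = 3.53e-20, edgeR). Of the 8 genes of the hepcidin and ferroxidase list 2 had enough reads to test.

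Among the 12 genes of haem handling, 10 were tested. With LPS at 2 h none was higher and 4 were lower in WT and 3 in KO, and at 24 h 4 were higher and 5 lower in each genotype. The share of all genes called was 23.1% (WT) and 23.9% (KO) at 2 h and 39.5% and 40.9% at 24 h. Hmox1, the haem oxygenase that frees iron from haem, was at 1380 ± 92.4 CPM with LPS at 2 h and 1609 ± 48.2 CPM in Control in WT (-0.22 ± 0.07, adjusted p = 0.0242, edgeR). In KO it was at 1171 ± 53.9 against 1426 ± 117 CPM (-0.28 ± 0.07, adjusted p = 0.00289, edgeR). Hmox2 (-0.40 ± 0.08), Slc48a1 (-0.21 ± 0.06) and Flvcr1 (-0.27 ± 0.09) were also lower in WT at 2 h, with smaller adjusted p (0.000207, 0.011 and 0.0213, edgeR). Hp (haptoglobin, which binds free haemoglobin) rose at 24 h from 5.90 ± 0.952 to 86.2 ± 23.5 CPM in WT (3.87 ± 0.22, adjusted p = 4.81e-21, edgeR) and from 8.72 ± 1.65 to 96.9 ± 8.35 CPM in KO (3.48 ± 0.20, adjusted p = 2.33e-20, edgeR). Lrp1, a receptor for haem bound to haemopexin, fell from 4086 ± 254 to 1290 ± 60.9 CPM in WT (-1.66 ± 0.07, adjusted p = 7.32e-25, edgeR) and from 4123 ± 107 to 1540 ± 45.7 CPM in KO (-1.42 ± 0.07, adjusted p = 2.74e-22, edgeR).

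Ncoa4, which delivers ferritin to lysosomes so that its iron can be released, fell with LPS at 24 h from 118 ± 1.72 to 77.5 ± 4.27 CPM in WT (-0.61 ± 0.07, adjusted p = 1.88e-10, edgeR) and from 114 ± 8.19 to 78.2 ± 2.66 CPM in KO (-0.55 ± 0.07, adjusted p = 1.96e-09, edgeR). Bach1, a repressor of Hmox1 and ferritin genes, fell at 24 h by 0.50 ± 0.06 in WT and 0.43 ± 0.06 in KO on the log2 scale (adjusted p = 2.28e-09 and 8.75e-08, edgeR). Of the 5 transcriptional regulators (Bach1, Nfe2l2, Spic, Hif1a and Epas1) 3 were higher and 0 lower at 2 h in each genotype, and 2 were higher and 2 lower at 24 h. Of all genes, 23.1% (WT) and 23.9% (KO) were called at 2 h, and 39.5% and 40.9% at 24 h. At 2 h Nfe2l2 (NRF2, a transcription factor known to drive ferritin and ferroportin genes) went from 290 ± 5.78 to 680 ± 18 CPM in WT (1.23 ± 0.06, adjusted p = 3.37e-23, edgeR) and from 294 ± 11.8 to 684 ± 52.0 CPM in KO (1.22 ± 0.06, adjusted p = 4.76e-23, edgeR). Spic, a regulator of Slc40a1 in red pulp macrophages of the spleen, went from 5.64 ± 0.741 to 25.9 ± 1.03 CPM in WT (2.20 ± 0.26, adjusted p = 1.2e-09, edgeR) and from 4.45 ± 0.927 to 22.3 ± 2.27 CPM in KO (2.32 ± 0.27, adjusted p = 1.01e-09, edgeR). These rises are those at 2 h. For Nfe2l2 the LPS effect at 24 h minus that at 2 h was -1.33 ± 0.09 in WT and -1.36 ± 0.09 in KO (adjusted p = 5.46e-18 and 3.03e-18, edgeR). Any part of Nfe2l2 or Spic in the fall of Slc40a1 was not tested.

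Of the 11 genes of iron uptake and reduction 4 were tested, and 1 of them was higher and 0 lower at 2 h in each genotype. The share of all genes called at 2 h was 23.1% in WT and 23.9% in KO. Slc25a37 (mitoferrin 1, which brings iron into mitochondria) rose at 2 h from 37.2 ± 4.96 to 102 ± 10.2 CPM in WT (1.46 ± 0.13, adjusted p = 2.84e-13, edgeR) and from 31.8 ± 6.29 to 113 ± 3.86 CPM in KO (1.83 ± 0.13, adjusted p = 2.18e-16, edgeR). Slc39a14 (ZIP14, the gene called in the uptake list and a carrier of iron not bound to transferrin) rose from 13.9 ± 1.18 to 44.7 ± 2.27 CPM in WT (1.68 ± 0.17, adjusted p = 1.64e-11, edgeR) and from 14 ± 3.19 to 51.3 ± 5.01 CPM in KO (1.88 ± 0.17, adjusted p = 4.01e-13, edgeR). Of the 16 genes of mitochondrial iron and haem synthesis, all tested, 1 was higher and 0 lower in WT and 2 higher and 1 lower in KO at 2 h. The same shares of all genes, 23.1% and 23.9%, stand beside these counts.

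Between genotypes at Control 0 h, 8 of 45 were called (5 higher and 3 lower in KO), beside 12.5% of all genes. Slc25a37 was higher (33.6 ± 4.49 against 16.9 ± 2.36 CPM, log2 1.00 ± 0.15, adjusted p = 9.44e-06, edgeR) and Ncoa4 lower (103 ± 6.23 against 146 ± 5.37 CPM, -0.50 ± 0.07, adjusted p = 5.6e-07, edgeR). In WT Control 2 h against WT Control 0 h, a comparison that shares the WT Control 0 h libraries, their log2 values were 1.14 ± 0.15 and -0.49 ± 0.07 (adjusted p = 6.98e-08 and 6.59e-08, edgeR). Ltf (lactoferrin) and Lcn2 were the genes called higher in KO in Control 2 h, palmitate 2 h, LPS 2 h and Control 24 h, with Ltf at 29.1 ± 13.8 against 7.99 ± 2.83 CPM in Control 2 h (1.89 ± 0.31, adjusted p = 0.000347, edgeR). Both are also in the granulocyte precursor list, whose sum was 71.3 to 138 CPM in KO and 20.7 to 37.5 CPM in WT there, and the part of such cells was not tested.

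Over the 14 group means of log2 CPM, the genes most like Slc40a1 among 7757 with at least 10 CPM were Soat1 (Pearson r = 0.976) and Slc16a9 (0.968), and those most like Tfrc were Igf1 (0.996) and Cadm1 (0.992). For Slc11a1 they were Cfp (0.978) and AB124611 (0.977), for Fth1 Cox8a (0.96) and Gng12 (0.949), for Ftl1 Rusc2 (0.93) and Jade1 (0.905), and for Slc11a2 Mgrn1 (0.954) and Lacc1 (0.952). Steap3 was most like Cd36 (0.948) and Ak3 (0.947), Hfe most like Wipf1 (0.934) and Clip2 (0.915), and Ireb2 most like Sestd1 (0.902) and Usp16 (0.894). Among the 9 genes themselves, r was 0.88 between Slc40a1 and Tfrc, 0.91 between Tfrc and Steap3, -0.91 between Tfrc and Slc11a1, and -0.27 between Fth1 and Ftl1. These are descriptions over 14 points that share libraries and scaling, and for Slc40a1 and Tfrc the 24 h LPS groups are the lowest of them.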

How the data were processed

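RNA-seq libraries of BMDM were made with the SMARTer Stranded Total RNA-Seq Pico kit and sequenced in paired ends. The authors deposited raw read counts per gene, not normalised. The submitters' processing notes name fastp 0.19.11, STAR 2.7.3a and the builds mm10 and mm9. The paper's methods give mm10 as the genome for the alignment with STAR. The annotation release and whether counting used the strand are not given in the sources used here, so overlapping and antisense genes are uncertain.

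Columns of the table name a group and no replicate, so library numbers follow column order and pair nothing. Of 37310 identifiers 32620 were matched to a symbol. No 2 libraries of a group agreed within sampling noise (chi-square per degree of freedom of at least 1.93 over 42 pairs). Total counts lay between 2848793 and 7743442, where 3 counts correspond to 0.387 to 1.05 CPM. Counting error is only part of the spread.

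Tests used edgeR 4.0.16 in R 4.3.3 (filterByExpr, TMM, quasi-likelihood F test, 1 mean per group over 42 libraries, Benjamini-Hochberg over 11624 genes, call at an adjusted p under 0.05). The SE is the log2 fold change divided by the square root of F. An exact permutation test of 3 against 3 cannot go below 0.10 and was not used. Alternatives were RLE size factors, all genes with a count, a fit of the libraries compared alone, DESeq2 1.42.0 and leaving out each library. Contrasts of the genotype difference between Control times and over conditions (4) were added after seeing the data. Named genes were the 9 members, in each comparison at most 4 other iron genes per direction with the smallest adjusted p, the 2 genes most alike in pattern (at least 10 CPM, log2 with a prior count of 2), Irf5, Lyz2 and treatment markers. The members and lists were chosen with earlier results of these data known. UTRs and positions came from GENCODE for GRCm38, and levels per kilobase used the longest principal transcript.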

Additional observations from a re-analysis of the deposited data

Results flagged for a closer look

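Several genes had effects that differed between times or between conditions by a test of the difference itself. The LPS effect at 24 h minus that at 2 h was -2.16 for Slc40a1, -2.35 for Tfrc, 0.52 for Slc11a1 and 0.56 for Fth1 in WT, and -1.53, -2.33, 0.57 and 0.48 for the same genes in KO, on the log2 scale (adjusted p between 2.49e-23 and 6e-06, edgeR). In contrasts added after seeing the data, the KO against WT difference of Slc40a1 at Control 0 h differed from that at Control 24 h by -0.84 (adjusted p = 0.00281) and from that at Control 2 h by -0.54 (adjusted p = 0.048, edgeR). The latter had an adjusted p of 0.0963 with DESeq2 and stayed called in 3 of 12 fits that left out a library (largest adjusted p = 0.199). Groups of 3 libraries were not tested for outlying samples.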

How the results depend on the processing

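No paired analysis was possible because the columns of the count table carry no replicate numbers. Among 1044 log2 values of the 9 genes under RLE size factors, all genes with a count, the libraries compared alone and DESeq2, 1028 kept their side of the threshold, 5 lost and 11 gained it, and 0 called values changed sign (8 uncalled ones did). With all genes with a count, 1 of 9 was called for KO against WT in Control 2 h and in palmitate 2 h (0 in the values reported), 2 in LPS 2 h (1 reported) and 2 for the Control 0 h minus Control 2 h genotype contrast (1 reported). Over all genes tested, this setting called 176, 130, 190 and 663 in these comparisons, against 57, 17, 54 and 554 in the values reported. With the libraries compared alone, 3 were called for KO against WT in Control 2 h and 1 in palmitate 2 h, beside 235 and 96 of all genes tested. The cause was not tested. Leaving out each library gave 1 to 4 members for LPS at 2 h in WT (2 reported), 1 to 3 for KO against WT in Control 0 h (3 reported), 0 to 1 for Control 2 h against 0 h in KO (0 reported), 0 to 2 for the Control 0 h minus Control 2 h genotype contrast, and 2 to 5 for the mean over the 6 conditions other than Control 0 h (4 reported). Calls over all genes moved as well in fits where these counts moved. They were 2179 to 2405 for LPS at 2 h in WT (2686 reported) and 731 for KO against WT in Control 0 h (1448 reported). For Control 2 h against 0 h in KO they were 954 (1406 reported). The Control 0 h minus Control 2 h contrast gave 312 to 698 (554 reported), and the 6-condition mean 470 to 593 (583 reported). Over 2592 log2 values from leaving out a library, 37 lost and 16 gained a call, and 0 called values reversed. Depth limits Steap3 most, at 45 to 147 reads per library.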
